A study of Mus musculus with 4 samples.

Results

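The scavenger receptor genes Marco, Msr1, Cd36, Scarb1, Scarb2, Stab1, Cd68, Cd163, Cd5l and Olr1 were followed by name in bone marrow-derived macrophages (BMDMs) of WT and LNCKO mice, with and without butyrate. All 10 were among the 16375 genes listed. The study asked whether butyrate, a short-chain fatty acid that gut bacteria make, acts on macrophages through the long noncoding RNA lncLy6c. WT and LNCKO macrophages were each sequenced as a control and with butyrate, which made 4 groups of 1 RNA library. Butyrate was given at 500 µM for 24 h, and control cells received none. LNCKO mice carry a germline CRISPR-Cas9 deletion of lncLy6c on a C57BL/6J background, and WT mice were C57BL/6. The macrophages of all groups were grown from bone marrow with the growth factor M-CSF. The methods give an age range for the C57BL/6 mice, which were of either sex, but not the age, sex or number of the mice behind each library. The titles of the LNCKO libraries give genotype and treatment, but their columns, named NC and R3, spell neither, so each LNCKO value rests on the titles. Values for lncLy6c itself were not analysed here.

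Scavenger receptors are membrane proteins of different structure that share an affinity for polyanionic and modified ligands, such as oxidised lipoproteins, bacterial surface molecules, dying cells and hemoglobin complexes. They are grouped in classes by their domains, and macrophages use them to clear debris, to take up lipids and to bind microbes without antibody. Marco and Msr1 are trimeric class A receptors with a collagen-like stalk. Cd36, Scarb1 and Scarb2 are class B proteins with a large loop between both membrane anchors, and Cd5l is a secreted relative built of scavenger receptor cysteine-rich (SRCR) domains.

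With 1 library per group, no difference between groups has a replicate check, and no p-value was computed. The deposited unit was FPKM, fragments per kilobase of gene per 1000000 fragments. The length used was the whole gene span with introns, and on that length all 10 genes gave whole numbers of fragments in every library. Intervals are 95% exact intervals on those fragments and cover counting error only. Fold differences are plain ratios of FPKM. Counts of genes used the log2 ratio of FPKM + 1 and a size rule, a log2 ratio of at least 0.32 in either direction. They covered the 6809 genes whose mean FPKM reached 1. Of the 10 genes, 8 met that mean, and Cd163 and Olr1 did not.

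Of the 10 genes, Marco had the largest fold with butyrate in WT. With butyrate it was 4.39-fold lower in WT macrophages and 1.36-fold lower in LNCKO macrophages. Cd5l had the largest fold by genotype in control cells, 2.96-fold higher in LNCKO, and was 3.06-fold higher there with butyrate. Cd36 was also higher in LNCKO under both conditions, and Stab1 was lower with butyrate, by 1.38-fold in WT and 1.12-fold in LNCKO. Cd68, Scarb1 and Scarb2 differed by at most 1.12-fold in any comparison. In bulk samples such as these, fewer cells of a type and less RNA per cell cannot be told apart.

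The 250 bases before the start of Marco, Stab1, Cd36 and Cd5l are shown because these were the genes past the size rule in at least 1 comparison. The sequences are from RefSeq on GRCm38.p6, 5′ to 3′ on the strand of the gene. Capitals mark matches to TGNGGT on either strand, with N any base, a loose pattern searched here for RUNX transcription factors. The marked matches all read TGGGGT, or ACCCCA where they lie on the other strand. Whether RUNX proteins bind these letters was not tested. Marco is shown from chr1:120505025-120505274 on the minus strand, Stab1 from chr14:31168642-31168891 on the minus strand, Cd36 from chr5:17835897-17836146 on the minus strand and Cd5l from chr3:87357631-87357880 on the plus strand. The Cd36 start used by RefSeq lies inside the gene span given by GENCODE M21.
Marco: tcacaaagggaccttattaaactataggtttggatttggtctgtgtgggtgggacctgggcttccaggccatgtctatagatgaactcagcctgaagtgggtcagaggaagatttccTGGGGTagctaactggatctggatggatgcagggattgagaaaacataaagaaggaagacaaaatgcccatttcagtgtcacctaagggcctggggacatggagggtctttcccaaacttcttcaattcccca
Stab1: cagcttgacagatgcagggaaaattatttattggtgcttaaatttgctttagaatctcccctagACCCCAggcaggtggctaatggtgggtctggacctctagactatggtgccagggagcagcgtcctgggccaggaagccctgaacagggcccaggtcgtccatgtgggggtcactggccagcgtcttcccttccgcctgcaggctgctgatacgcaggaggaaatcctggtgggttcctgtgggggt
Cd36: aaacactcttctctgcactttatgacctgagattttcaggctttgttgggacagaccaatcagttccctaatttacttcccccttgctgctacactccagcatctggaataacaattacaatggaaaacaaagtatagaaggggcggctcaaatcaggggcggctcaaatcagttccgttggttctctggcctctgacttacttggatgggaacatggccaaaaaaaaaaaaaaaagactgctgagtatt
Cd5l: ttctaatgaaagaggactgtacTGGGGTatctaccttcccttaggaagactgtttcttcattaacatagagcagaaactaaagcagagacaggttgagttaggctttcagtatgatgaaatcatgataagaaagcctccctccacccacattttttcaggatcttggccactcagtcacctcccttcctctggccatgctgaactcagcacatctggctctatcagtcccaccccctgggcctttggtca

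Marco, Stab1 and Cd5l each held 1 match and Cd36 held none. Searched on both strands over 300 bases, from 250 before to 50 after the start, TGNGGT was found in 5 of the 8 members that had an entry, against 45.8% of 32851 promoters. Msr1 and Scarb1 had no entry. The core of PU.1 sites (GAGGAA) was in 5 of the 8, against 28.3% of all promoters. It was present for Marco, Stab1 and Cd5l and not for Cd36. The AP-1 letters TGANTCA were in 2 of the 8 against 7.81%, the NRF2 letters TGACNNNGC were in 1 against 12.4%, and the E-box CACGTG was in 0 against 7.15%. Each motif was counted by itself, with no step for overlaps between motifs, and a match is a description of letters.

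**Figure D1:**
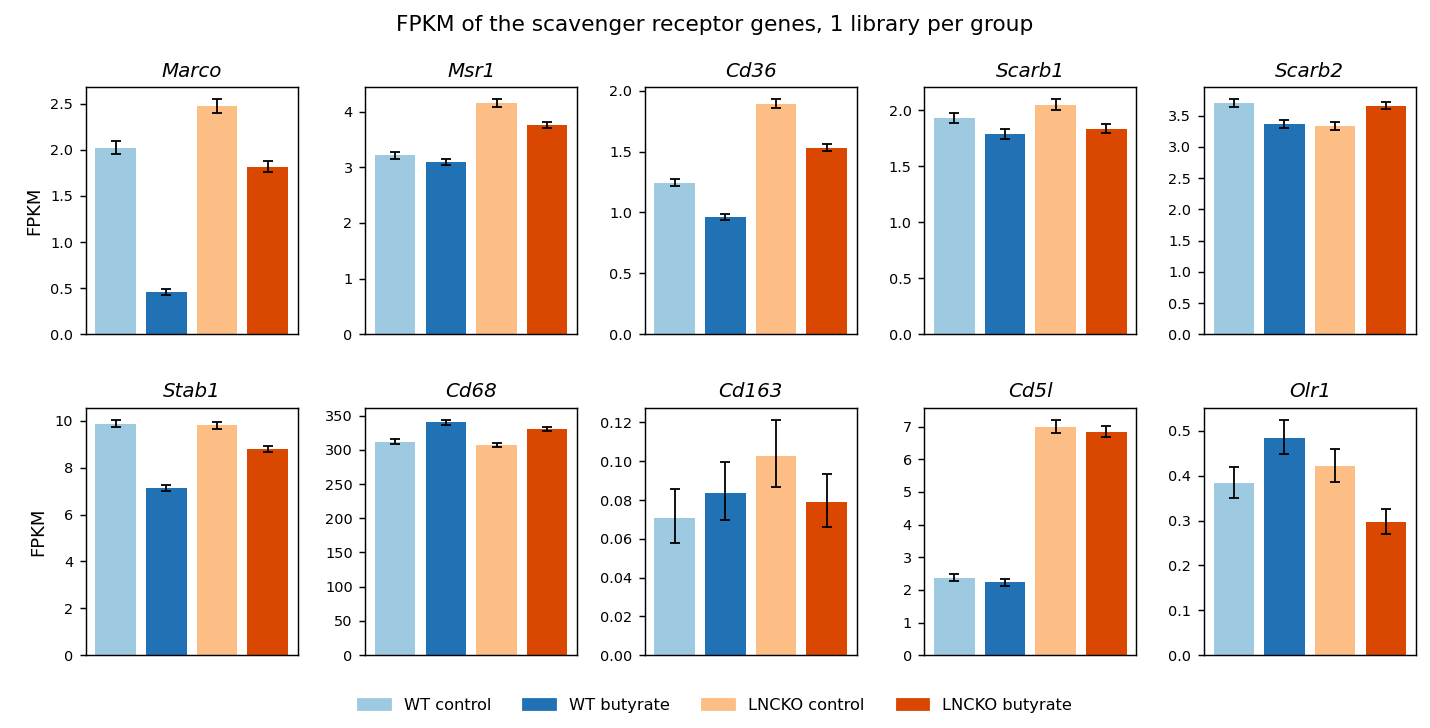
FPKM of each scavenger receptor gene (y axes, each from 0 and each with its own range) in the 4 libraries, 1 bar per library, with 95% exact counting intervals as error bars. The WT butyrate bar of Marco (0.461) is far under its other bars (1.81 to 2.47), and both LNCKO bars of Cd5l (6.85 and 7.01) are far over both WT bars (2.24 and 2.37).

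Marco (ENSMUSG00000026390) lies at chr1:120474538-120505024 of GRCm38 on the minus strand, and exons make up 6.31% of this span. It encodes a receptor with a terminal SRCR domain that binds bacteria and inhaled particles. Its FPKM was 2.02 (3480 fragments) without and 0.461 (832 fragments) with butyrate in WT, and 2.47 (4021 fragments) without and 1.81 (3624 fragments) with it in LNCKO. WT butyrate was the low library, and the other values lay within 1.36-fold of each other. With butyrate, Marco was 4.39-fold lower in WT (interval 4.07 to 4.74) and 1.36-fold lower in LNCKO (interval 1.30 to 1.43). On the log2 scale of FPKM + 1 these changes were -1.05 and -0.30, at rank 5 and rank 40 from the lowest of 6809 genes.

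The intervals of Marco did not overlap between any of the 4 libraries. LNCKO exceeded WT by 1.22-fold without butyrate (interval 1.17 to 1.28) and by 3.94-fold with butyrate (interval 3.65 to 4.25). The change with butyrate in WT was 0.75 lower than in LNCKO on the log2 scale of FPKM + 1, or 1.69 lower on that of FPKM. This difference of changes, with 1 library behind each of its 4 terms, ranked 24th from the lowest of 6809 genes.

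Msr1 (ENSMUSG00000025044, chr8:39581685-39642673, minus strand), the class A receptor for acetylated low-density lipoprotein, had an FPKM of 3.21 without and 3.09 with butyrate in WT, and 4.15 without and 3.76 with it in LNCKO. Both LNCKO libraries were above both WT libraries. Msr1 was 1.29-fold higher in LNCKO without butyrate (interval 1.26 to 1.32) and 1.22-fold higher with it (interval 1.19 to 1.246). With butyrate it was 1.04-fold lower in WT and 1.11-fold lower in LNCKO. Of the class A genes, Marco thus had the larger fold with butyrate in both genotypes. Their genotype ratios without butyrate had overlapping intervals.

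Cd36 (ENSMUSG00000002944, chr5:17781690-17888801, minus strand) encodes a class B receptor for oxidised lipoproteins and long-chain fatty acids. Its FPKM was 1.245 without and 0.959 with butyrate in WT, and 1.89 without and 1.53 with it in LNCKO. Within each genotype the butyrate library was the lower, and at each treatment the LNCKO library was the higher. With butyrate, Cd36 was 1.30-fold lower in WT (interval 1.255 to 1.34) and 1.24-fold lower in LNCKO (interval 1.20 to 1.27). In LNCKO it was 1.52-fold higher without butyrate (interval 1.48 to 1.57) and 1.60-fold higher with it (interval 1.55 to 1.65).

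Scarb1 (ENSMUSG00000037936, chr5:125277087-125341094, minus strand), the receptor for high-density lipoprotein, had an FPKM of 1.93 without and 1.79 with butyrate in WT, and 2.05 without and 1.84 with it in LNCKO. It was 1.08-fold lower with butyrate in WT and 1.12-fold lower in LNCKO, and the genotypes differed by 1.06-fold at most. The gene Gm42633 overlaps it on the same strand, so their reads cannot be told apart there. Scarb2 (ENSMUSG00000029426, chr5:92441314-92506833, minus strand), a lysosomal membrane protein that carries glucocerebrosidase, had an FPKM of 3.70 without and 3.37 with butyrate in WT, and 3.33 without and 3.66 with it in LNCKO. With butyrate it was 1.10-fold lower in WT, yet 1.10-fold higher in LNCKO. The microRNA gene Mir6415 overlaps it on the other strand. The class B genes thus differed in direction with butyrate in LNCKO.

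Cd68 (ENSMUSG00000018774, chr11:69664213-69666153, minus strand) encodes a glycoprotein of macrophage endosomes and lysosomes and is a common marker of macrophages. Its FPKM was 312 without and 340.01 with butyrate in WT, and 307 without and 330 with it in LNCKO, from 31779 to 41963 fragments. With butyrate Cd68 was higher by 1.09-fold in WT and by 1.08-fold in LNCKO, the direction opposite to that of Marco, Cd36 and Stab1. The genotypes differed by 1.03-fold at most.

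Stab1 (ENSMUSG00000042286, chr14:31139013-31168641, minus strand) encodes stabilin, a class H receptor that takes up matrix proteins and dying cells. Its FPKM was 9.88 without and 7.14 with butyrate in WT, and 9.81 without and 8.78 with it in LNCKO. The control libraries had overlapping counting intervals, and WT butyrate was the lowest library. With butyrate, Stab1 was 1.38-fold lower in WT (interval 1.35 to 1.42) and 1.12-fold lower in LNCKO (interval 1.09 to 1.14). In WT this was -0.42 on the log2 scale of FPKM + 1, at rank 77 from the lowest of 6809 genes. The protein-coding gene Nt5dc2 overlaps it on the other strand, and whether the counting used the strand is not given in the sources used here.

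Cd5l (ENSMUSG00000015854, chr3:87357881-87371073, plus strand) encodes an SRCR protein that macrophages secrete and that binds lipids and microbes. Its FPKM was 2.37 (1763 fragments) without and 2.24 (1747 fragments) with butyrate in WT, and 7.01 (4932 fragments) without and 6.85 (5923 fragments) with it in LNCKO. Both LNCKO libraries were high, and within each genotype the values with and without butyrate were close. LNCKO exceeded WT by 2.96-fold without butyrate (interval 2.80 to 3.12) and by 3.06-fold with it (interval 2.90 to 3.23). On the log2 scale of FPKM + 1 these were 1.248 and 1.28, at rank 10 and rank 13 from the highest of 6809 genes. With butyrate, the ratio to control had an interval that included equality in both genotypes, at 1.06-fold lower in WT and 1.02-fold lower in LNCKO.

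Cd163 and Olr1 were hardly expressed. Cd163 (ENSMUSG00000008845, chr6:124304656-124330527, plus strand), the receptor for hemoglobin-haptoglobin complexes, had an FPKM of 0.0706 without and 0.0836 with butyrate in WT, and 0.103 without and 0.0790 with it in LNCKO, from 103 to 142 fragments. It was 1.46-fold higher in LNCKO without butyrate, and the wide interval of 1.12 to 1.90 reflects the few fragments. With butyrate, the interval of its ratio included equality in WT, and in LNCKO it was 1.30-fold lower (interval 1.02 to 1.66). Olr1 (ENSMUSG00000030162, chr6:129485244-129507165, minus strand), the lectin-like receptor for oxidised low-density lipoprotein, had an FPKM of 0.384 without and 0.485 with butyrate in WT, and 0.421 without and 0.297 with it in LNCKO. With butyrate it was 1.26-fold higher in WT (interval 1.12 to 1.42) and 1.42-fold lower in LNCKO (interval 1.24 to 1.62).

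**Figure D2:**
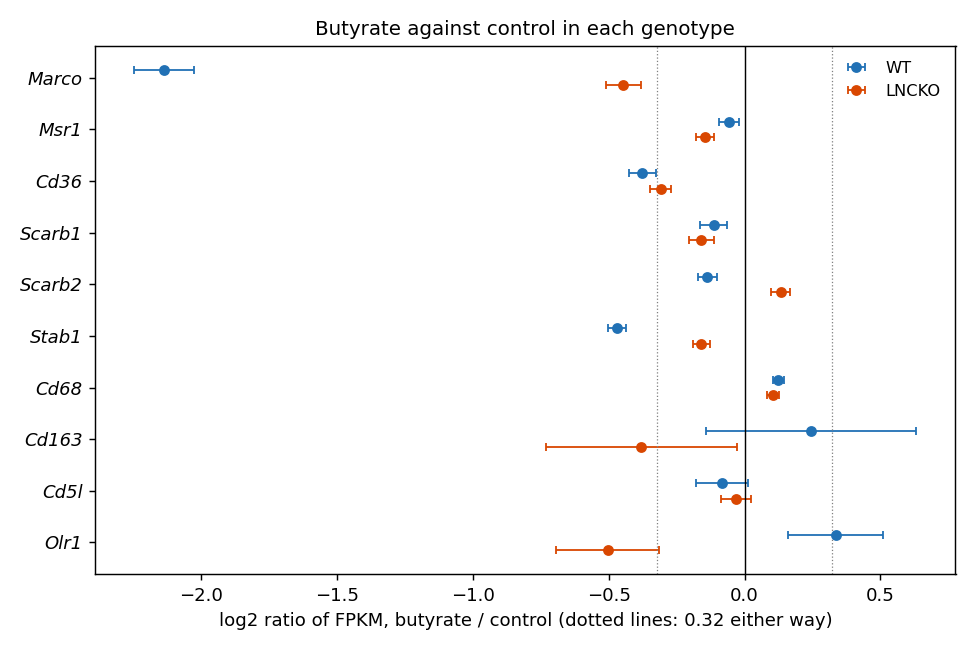
Log2 ratio of FPKM, butyrate over control (x axis), of each scavenger receptor gene (y axis) in WT (blue) and LNCKO (orange), with 95% exact counting intervals and dotted lines at 0.32 in either direction. Marco in WT stands at -2.13 and in LNCKO at -0.45. Scarb2, Cd163 and Olr1 lie on opposite sides of 0 in the 2 genotypes, and the WT interval of Cd163 includes 0.

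Of the 8 scavenger receptor genes whose mean FPKM reached 1, 2, Marco and Stab1, lay past the size rule in the lower direction with butyrate in WT, where 2.85% of the 6809 genes were. None of the 8 was as much higher, where 2.95% of genes were. In LNCKO, 0 of the 8 were past this size in either direction, against a background of 1.01% higher and 0.455% lower. Marco in LNCKO, at -0.30, lay just short of the limit of 0.32, and its plain log2 ratio of -0.45 was past it. The median change of the 8 genes was -0.09 in WT and -0.11 in LNCKO, where the medians of all 6809 genes were -0.04 and -0.01. The comparisons share libraries and the members were chosen by name, so these counts and medians are descriptions.

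**Figure D3:**
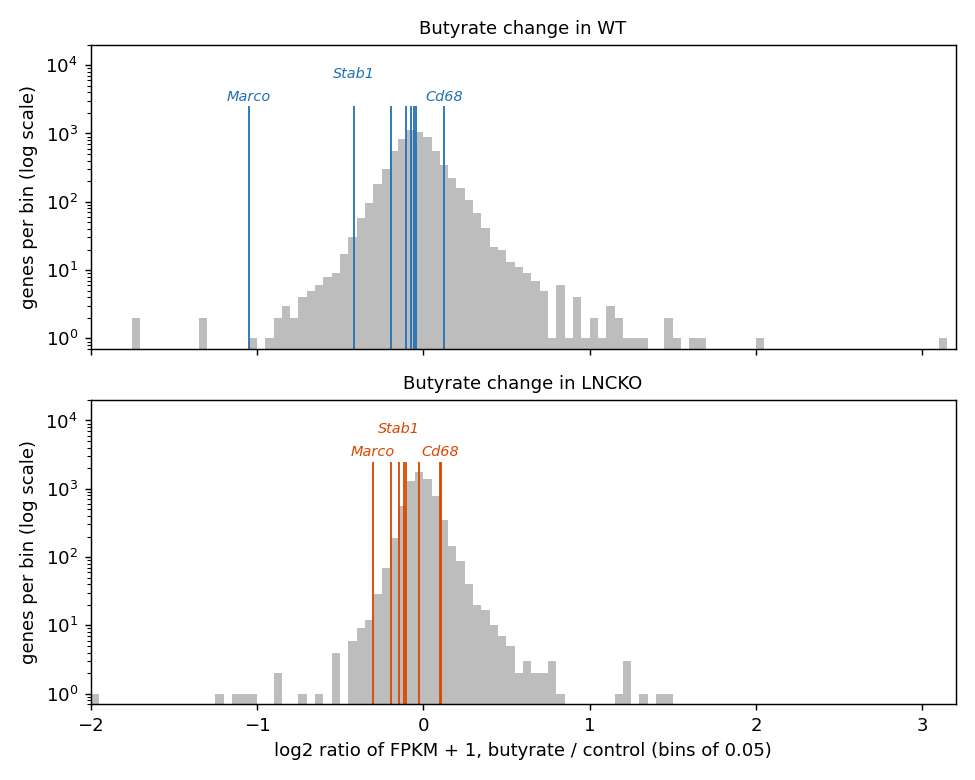
Number of genes (y axis, log scale) per bin of 0.05 in the log2 ratio of FPKM + 1, butyrate over control (x axis), for 6809 genes in WT (upper) and LNCKO (lower); values under -2 are drawn in the first bin. Vertical lines mark the 8 scavenger receptor genes, with Marco at -1.05 and Stab1 at -0.42 in WT and Marco at -0.30 and Stab1 at -0.14 in LNCKO.

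Between the genotypes without butyrate, 2 of the 8 genes were past the size rule in the higher direction in LNCKO, Cd36 and Cd5l, and 0 in the lower, against 1.23% higher and 0.984% lower over all genes. With butyrate, Marco, Cd36 and Cd5l were higher and 0 were lower, against 3.82% and 2.48%. The median difference of the 8 genes was 0.13 without butyrate and 0.24 with it, beside 0.01 and 0.04 over all genes. For the change with butyrate in WT minus that in LNCKO, Marco was past the rule in the lower direction, where 4.1% of genes were, and 0 of the 8 were past it in the higher direction, where 3.5% were.

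**Figure D4:**
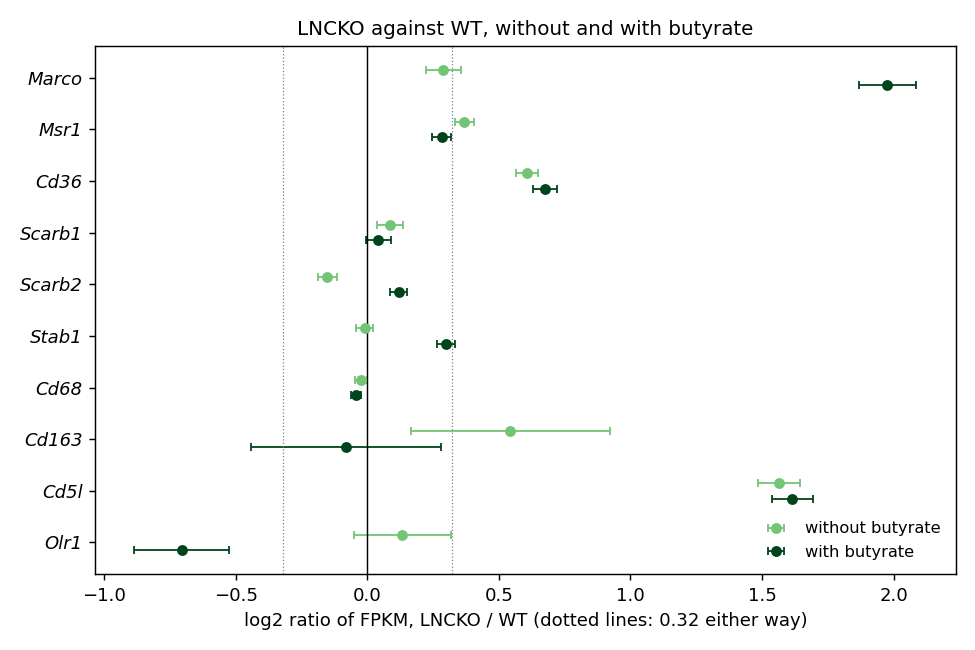
Log2 ratio of FPKM, LNCKO over WT (x axis), of each scavenger receptor gene (y axis) without butyrate (light green) and with butyrate (dark green), with 95% exact counting intervals and dotted lines at 0.32 in either direction. Cd5l lies near 1.6 under both conditions (1.56 and 1.61), and Marco lies at 0.29 without and 1.98 with butyrate.

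FPKM on the whole span understates genes with long introns, so levels were compared between genes as fragments per kilobase of exon per 1000000 fragments. On this scale Cd68 had a level of 482 in WT control, above all other members, and Olr1 and Cd163 were the lowest at 2.36 and 0.334. Between them in WT control stood Scarb2 at 38.6, Cd36 at 37.2, Marco at 32.1, Msr1 at 30.9, Stab1 at 28.4, Cd5l at 15.4 and Scarb1 at 14.6. The counting intervals of 3 neighbouring pairs in this order overlapped, namely Scarb2 and Cd36, Marco and Msr1, and Cd5l and Scarb1.

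Marco moved down this order with butyrate. Its exon level was 7.30 in WT butyrate, rank 8 of 10, against rank 4 in WT control. In LNCKO it was 39.1 in control and 28.7 with butyrate, ranks 5 and 6. Cd5l stood at rank 7 in WT control and 6 in WT butyrate. In both LNCKO libraries it ranked 3, at exon levels of 45.4 and 44.4. The only other neighbours with overlapping intervals were Msr1 and Cd36 in WT butyrate, Msr1 and Marco in LNCKO control, and Cd36 and Cd5l in LNCKO butyrate.

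Ratios of fragments within a library do not depend on its total. They were chosen after the values had been seen. Per 100 fragments of Msr1, WT macrophages had 31.5 fragments of Marco without and 7.46 with butyrate, and LNCKO macrophages had 29.8 without and 24.1 with it. Per 100 fragments of Cd68, Marco had 10.2, 2.13, 12.7 and 8.64 in the same order, and per 100 fragments of Csf1r, the M-CSF receptor, it had 4.20, 0.957, 5.85 and 4.58. WT butyrate was the low library by each of these references. Cd5l per 100 fragments of Cd68 was 5.16 without and 4.47 with butyrate in WT, and 15.5 without and 14.1 with it in LNCKO.

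The genes whose log2 profile over the 4 libraries was nearest to that of Marco, by Euclidean distance of centred log2(FPKM + 1) values among the 2544 genes whose mean FPKM reached 5, were Sox4, Lpl, Lipa, Evi2 and Pafah1b3. Their distances ran from 0.258 for Sox4 to 0.402 for Pafah1b3. Sox4 encodes a transcription factor, and its FPKM was 12.4 without and 7.0004 with butyrate in WT, and 14.5 without and 13.2 with it in LNCKO. Lpl encodes lipoprotein lipase, and its FPKM was 13.1 without and 7.71 with butyrate in WT, and 19.9 without and 14.4 with it in LNCKO. Each of these 5 had its lowest value in WT butyrate, which largely follows from picking them by nearness to Marco. On the log2 scale of FPKM + 1, the WT change with butyrate was -1.05 for Marco and -0.74 for Sox4. Without the added 1 that of Marco was -2.13, so these distances hold for the scale used. Nearness over 4 libraries is a description and carries no test.

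Of 17 other scavenger receptors and SRCR proteins, 16 were listed and 6 had a mean FPKM of at least 1. With butyrate, 1 of the 6 was past the size rule in each genotype, in the lower direction. Over all genes 2.85% were in WT and 0.455% in LNCKO. In both genotypes the gene was Cd14, the lipopolysaccharide coreceptor. Its FPKM was 88.6 without and 60.0 with butyrate in WT, and 95.6 without and 76.3 with it in LNCKO, or -0.56 and -0.32 on the log2 scale of FPKM + 1. The median of the 6 genes was -0.03 in WT and 0.05 in LNCKO.

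Genes of lipoprotein uptake, storage and efflux had 14 of 15 members at a mean FPKM of 1 or more. With butyrate in WT, 4 were past the size rule upwards and 2 downwards, where 2.95% and 2.85% of all genes were. The higher genes were the lipid droplet protein Plin2 (log2 0.42), the fatty acid carriers Fabp4 (0.39) and Fabp5 (0.34), and Apoe (0.37). The lower genes were Lpl (-0.70) and the lysosomal lipase Lipa (-0.61). In LNCKO, 3 were higher, Fabp4 (0.54), Fabp5 (0.43) and Apoe (0.34), and Lpl was lower (-0.44), where 1.01% and 0.455% of all genes were. Lipa in LNCKO was at -0.05, and the median of the 14 genes was -0.05 in WT and 0.03 in LNCKO.

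Hemoglobin and heme handling had 8 of 10 members at such a mean. Hmox1, the heme oxygenase, was the only one of them past the size rule with butyrate in WT, and none of the 8 was in LNCKO. Over all genes 2.95% were past it upwards and 2.85% downwards in WT, and 1.01% and 0.455% in LNCKO. The FPKM of Hmox1 was 33.9 without and 21.5 with butyrate in WT, and 42.8 without and 46.2 with it in LNCKO. The log2 change of Hmox1 was -0.64 in WT and 0.11 in LNCKO. Between the genotypes 1 of the 8 was higher in LNCKO without butyrate, where 1.23% of all genes were. With butyrate 3 were higher and 1 lower, where 3.82% and 2.48% of all genes were.

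Apoptotic cell uptake had 13 of 22 members at such a mean. With butyrate 1 was just past the size rule upwards in WT, the complement gene C1qa at log2 0.33, and 0 were downwards. In LNCKO 0 were past the rule. Over all genes 2.95% were past it upwards and 2.85% downwards in WT, and 1.01% and 0.455% in LNCKO. The median of the 13 was -0.03 in WT and -0.01 in LNCKO. Of the transcription factors tied to scavenger receptor genes, 12 of 15 reached a mean FPKM of 1. With butyrate in WT, 1 of the 12 was past the rule upwards and 1, Irf4 (log2 -0.45), downwards. In LNCKO 0 were past it, and the shares over all genes are those just given. With butyrate, Irf4 (0.43) and Nr1h3 (0.57) were past the rule upwards in LNCKO against WT, where 3.82% of all genes were. Nr1h3 encodes the oxysterol receptor LXR alpha.

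All 4 libraries had the macrophage marker genes, with 9 of 10 at a mean FPKM of at least 1 and Csf1r at an FPKM from 38.3 to 46.5. Their sum, most of it from the lysozyme gene Lyz2, was 2496 without and 3455 with butyrate in WT, and 2118 without and 1413 with it in LNCKO. Markers of other bone marrow cells were also present and differed between the libraries. The summed FPKM of 7 B cell markers was 209 without and 164 with butyrate in WT, and 213 without and 216 with it in LNCKO, so it was lowest where Marco was lowest. That of 10 neutrophil markers was 2707 without and 3231.5 with butyrate in WT, and 2341 without and 2253 with it in LNCKO, and was highest in WT butyrate. With butyrate in WT, 5 of the 10 neutrophil markers were past the size rule upwards and 2 downwards, while 3 of the 5 B cell markers whose mean FPKM reached 1 were past it downwards. Over all genes 2.95% were past it upwards and 2.85% downwards. In LNCKO, 0 of both lists were past the rule. The part of these cells in the values of Marco and Stab1 was not tested.

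Beside the higher Cd5l and Cd36 of LNCKO, 7 mast cell and basophil markers summed to an FPKM of 46.6 without and 35.2 with butyrate in WT, and 72.2 without and 71.25 with it in LNCKO. The 8 listed erythroid markers summed to 14.8, 14.9, 31.9 and 73.4 in the same order. Of the 4 whose mean FPKM reached 1, 3 were past the size rule upwards in LNCKO at both treatments. Over all genes 1.23% were without butyrate and 3.82% with it. The 8 stromal markers summed to 10.1, 9.47, 2.84 and 5.65. Of other cells that use Cd36, Stab1 or both, the 8 endothelial markers summed to an FPKM from 2.12 to 2.40 with Pecam1 at 1.10 to 1.31, Kdr at 0.680 to 0.941 and Lyve1, Emcn and Tek near 0, and the 4 listed adipocyte markers summed to at most 0.156. T and NK cell markers summed to 14.7 to 19.4, most of it from Nkg7 (10.5 to 15.6). Dendritic cell markers summed to 185 to 219, most of it from Bst2 (168 to 203). The part of these cells in the genotype differences was not tested.

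Y-linked genes differed too between the genotypes. Their 4 members summed to an FPKM of 0.136 in WT control and 0.0657 in WT butyrate against 10.3 and 11.5 in the LNCKO libraries. Genotype and the sex of the donors cannot be told apart in these 4 libraries, which touches every genotype value given here, those of Cd5l, Cd36, Msr1 and Marco included, and the difference of the changes of Marco. Library totals ran from 53363944 to 65521713 fragments.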

How the data were processed

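RNA sequencing of BMDMs gave 4 libraries in 4 groups, taken from titles and label fields. The authors deposited FPKM values per gene and no counts. Per the methods, paired-end sequencing used an MGISEQ-2000 platform, while Illumina protocols stand in the labels. The submitters' processing notes name STAR 2.5.0c, Picard 1.126, bedtools 2.17.0, HTSeq 0.6.0 and the builds GRCm38 and mm10, without a role.

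Library totals were found as the numbers that turn most FPKM values into whole fragments on the gene spans of GENCODE M21. Of 16342 matched genes, 98.6% were then whole, within 0.05 fragment, in all 4 libraries, against 7.48% on exon lengths. Totals ranged from 53363944 to 65521713 fragments. Reads carry no molecular identifiers, so the exact Poisson intervals of levels and exact binomial intervals of ratios, both at 95%, cover counting error only.

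Changes were log2 ratios of FPKM + 1, a scale that understates changes of low genes, with plain ratios beside them. No test was possible with 1 library per group, and the log2 limit of 0.32 is a rule of size. The text names the members, up to 4 genes with the largest change per list and comparison, and the 5 genes nearest to Marco; other genes named as markers, Csf1r, Pecam1, Kdr, Lyve1, Emcn and Tek among them, were named after their values were seen. The members and the 17 lists were chosen with earlier results of these data known. Some genes of the lists are not reported here. Alternatives were a pseudocount of 0.1 or none, a mean FPKM of at least 5 or no filter, and median-ratio scaling. The steps were tested on simulated data. Tools were pandas 2.3.3, scipy 1.17.1, numpy 2.4.6 and matplotlib 3.10.9, under Python 3.11.15.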

Additional observations from a re-analysis of the deposited data

Results flagged for a closer look

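Scarb2 and Olr1 had changes with butyrate of opposite direction in the genotypes, each at least 0.1 in size on the log2 scale of FPKM + 1. For Scarb2 the change was -0.11 in WT and 0.10 in LNCKO, a difference of -0.21. For Olr1 it was 0.10 in WT and -0.13 in LNCKO, a difference of 0.23, at a mean FPKM under 1 and from 427 to 629 fragments. Neither difference was tested, since each group had 1 library.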

How the results depend on the processing

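No paired analysis was possible because each group had 1 library, and leaving out a library would empty a group. Of the member changes under other settings, 104 stayed within the half-width of their 95% counting interval, or within 0.2 on the log2 scale for the difference of the changes, and 36 moved further. None past the size rule turned its direction. Under median-ratio scaling, 2 values near 0 changed sign, Scarb1 in LNCKO against WT with butyrate (0.03 to -0.0035) and Cd36 in the difference of the changes (-0.0024 to 0.0094). Of 40 member levels, 11 moved by more than the counting error under median-ratio scaling, and 26 of 40 ranks changed on exon length. Median-ratio scaling moved no count of genes by over 1.5 times.

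With a pseudocount of 0.1, genes past the size rule upwards and downwards numbered 316 and 444 for butyrate in WT (201 and 194 as reported), 127 and 84 in LNCKO (69 and 31), 177 and 127 for LNCKO against WT without butyrate (84 and 67), 479 and 303 with it (260 and 169), and 413 and 511 for the difference of the changes (238 and 279). Without a pseudocount they were 340 and 495, 137 and 101, 189 and 138, 523 and 320, and 437 and 573. Under both, 1 member, Marco, was past the rule downwards in LNCKO, against 0 as reported, and 3 members instead of 2 were in WT. Likewise 3 members instead of 2 were past it upwards in LNCKO without butyrate, with Msr1 added at 0.36 and 0.37. At a mean FPKM of at least 5, with 2544 genes and only Stab1 and Cd68 left of the members, the counts were 100 and 85, 29 and 11, 37 and 21, 115 and 77, and 98 and 130. There 1 member was lower with butyrate in WT, 0 were higher in LNCKO at either treatment, 0 were past the rule for the difference of the changes, and the member median for LNCKO against WT without butyrate was -0.0167 instead of 0.13. Without a filter on low values, 53 genes were lower with butyrate in LNCKO and 108 lower in LNCKO without butyrate. Fewer or more genes tested and a smaller pseudocount account for these counts by construction.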
